A study of Mus musculus with 2 samples.

Results

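Mesoangioblasts are progenitor cells that grow out of the vessel wall of the embryo and can turn into several kinds of mesodermal cell. In clones D351 and D16 of mouse mesoangioblasts, the signals of 7 lineage transcription factors were described: Prrx1, Hand2, Tbx5, Gata4, Sox9, Tcf4 and Runx1. They were taken by gene symbol, as every probe set of the Affymetrix MG-U74B array annotated with exactly 1 symbol, that symbol being one of the 7. This gave 10 probe sets for 7 genes, of 10581 probe sets for 7542 genes with 1 symbol on the array. The 7 genes were picked with their values on these same arrays known, so their differences between the clones are given as a description, with no test.

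Expression was measured on 1 array of total RNA for clone D351 and 1 array for clone D16. Per the labels, both clones came from the dorsal aorta of C57BL6 embryos at day 9.5, which was kept as an explant for 5 days before single cells were cloned. Both were cloned in medium with 20% fetal calf serum over primary embryonic fibroblasts that had been stopped from dividing with mitomycin C, and were then expanded on gelatin. Neither clone carries a stated allele or treatment, each group is a single clone, and no array was repeated, so the spread between cultures is unknown and no p-value can be given.

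The lineage factors studied here are proteins that bind DNA in the nucleus and set which genes a mesodermal cell uses. Heart and limb buds both form from lateral plate mesoderm, and several factors, among them Hand2 and Tbx5, are used in both places. Cells are told apart by the combination of such factors more than by any single one, and bHLH factors such as Hand2 act as dimers with broadly expressed E proteins, of which Tcf4 is one.

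Hand2 and Prrx1, both several-fold higher in D351, are shown first by the start of their genes. These are RefSeq promoter sequences of assembly GRCm38.p6, from 250 bases before to 50 bases after the start, at chr8:57320733-57321032 on the plus strand for Hand2 and chr1:163313601-163313900 on the minus strand for Prrx1, 5′ to 3′ along the gene. Capitals mark the letters of 3 motifs searched on both strands, the E-box CANNTG of bHLH factors, the GATA core GATAA and the homeobox core TAATTA. These 3 are shown because the proteins described here include factors that bind each of these kinds of motif. The same holds for the T-box (GTGTGA), Runx (TGTGGT) and Sox (ACAAAG) motifs. These were searched too and had 0 matches in both windows.
Hand2: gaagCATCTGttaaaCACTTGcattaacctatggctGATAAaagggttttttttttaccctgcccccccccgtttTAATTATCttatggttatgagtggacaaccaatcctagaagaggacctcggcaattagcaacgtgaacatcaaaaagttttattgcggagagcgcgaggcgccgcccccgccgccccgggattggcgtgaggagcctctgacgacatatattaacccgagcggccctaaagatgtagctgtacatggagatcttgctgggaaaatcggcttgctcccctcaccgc
Prrx1: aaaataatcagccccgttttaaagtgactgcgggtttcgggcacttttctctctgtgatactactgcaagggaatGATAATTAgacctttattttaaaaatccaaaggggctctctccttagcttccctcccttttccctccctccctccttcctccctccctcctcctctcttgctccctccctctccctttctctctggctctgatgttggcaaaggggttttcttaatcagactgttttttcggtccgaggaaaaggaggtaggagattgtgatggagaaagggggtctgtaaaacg
The Hand2 window held 2 E-boxes, 2 GATA cores and 1 homeobox core, and the Prrx1 window held 0 E-boxes, 1 GATA core and 1 homeobox core. Of 32851 RefSeq promoters of this length, 72.3% held an E-box, 25.4% a GATA core and 5.29% a homeobox core. The T-box, Runx and Sox motifs, with 0 matches in these 2 windows, were held by 14.5%, 16.8% and 18.7% of the promoters. In both windows the homeobox core overlapped a GATA core to spell GATAATTA on one strand, which 0.447% of all the promoters held. That joint motif was noticed in these sequences and counted afterwards, and letters in a window do not show that a factor binds there. RefSeq promoter sequences matched 3 of the 7 genes, the other being Runx1, whose 2 windows are not printed. One Runx1 window held 3 E-boxes, 1 T-box and 2 Runx motifs, and the other held 0 of the motifs searched. Neither Runx1 window held a GATA core, a homeobox core or the joint motif.

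The signals are linear intensities, comparable between the arrays for the same probe set and not between different probe sets. A floor of 16.8, the 50th percentile of both arrays pooled, was used as the lower limit for a ratio, and a ratio with 1 array under it is a bound. Of the 10 probe sets, 9 reached the floor in D351 and 9 in D16, 8 did so in both and 0 in neither. All 10 have the plain _at ending, which marks a probe set meant for a single transcript. On each gene's brightest probe set, Prrx1, Hand2 and Tbx5 (3 of the 7) were higher in D351 by 2-fold or more, Gata4, Sox9 and Tcf4 (3 of the 7) were lower by 2-fold or more and Runx1 (1 of the 7) differed by less than 2-fold. Over the 4922 genes measured, 9.49% passed 2-fold towards higher signal in D351 and 8.57% towards lower signal, a background from which nothing is read because the genes were picked on this difference. By probe set the members split 4 higher, 3 lower and 3 under 2-fold, where 9.23% and 7.99% of 6920 measured probe sets were higher and lower. In each of the 3 genes with 2 probe sets (Prrx1, Sox9 and Tcf4) both lay in the same direction.

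**Figure D1:**
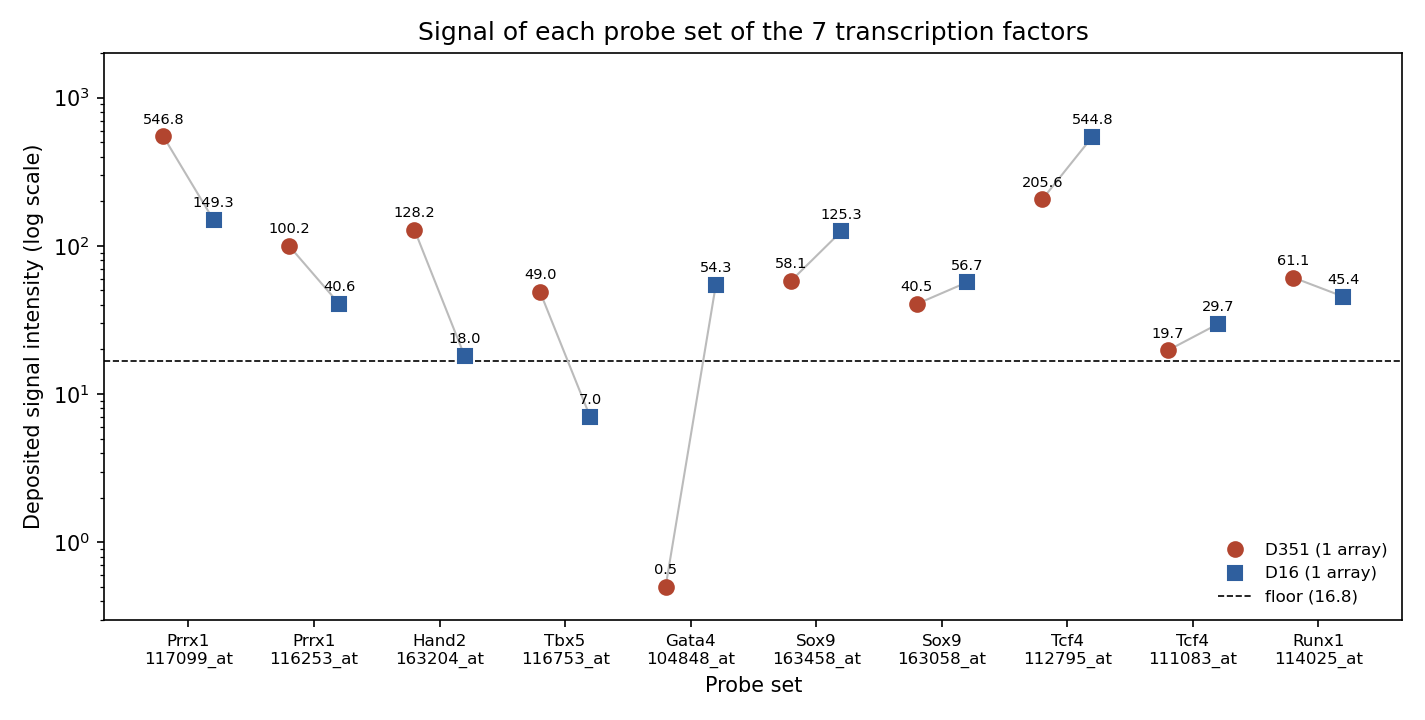
Deposited signal (linear intensity drawn on a log axis) of each of the 10 probe sets, with the D351 array as circles and the D16 array as squares, joined by a line, and the floor of 16.8 dashed. Tbx5 lies under the floor in D16 alone (7.0) and Gata4 in D351 alone (0.5).

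Prrx1 encodes a paired-type homeodomain protein of limb bud and craniofacial mesenchyme, and it was the factor seen higher in D351 on more than 1 probe set. Probe set 117099_at read 546.8 in D351 and 149.3 in D16, a 3.66-fold difference (log2 1.87). Probe set 116253_at read 100.2 in D351 and 40.6 in D16, a 2.47-fold difference (log2 1.30). The gene was thus well above the floor in both clones, and higher in D351 on either probe set. With the floor raised to the 75th percentile (53.5) the D16 reading of 116253_at was under the floor, and its ratio became a bound of log2 at least 0.91.

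Prrx1 is also expressed by embryonic fibroblasts, the cells used as feeders during cloning. Of 23 other fibroblast markers listed, 4 were on the array (Col5a2, Cd248, Aspn and Sfrp1). Of these, 4 of 4 were at least 2-fold higher in D351 (9.49% of all measured genes), with log2 ratios of 1.24 to 4.22. The markers were listed with earlier results of these data known, so the count is a description. Their summed signal was 1701.8 in D351 and 303.1 in D16, of which Sfrp1 gave 900.3 in D351 and 48.2 in D16. Aspn (3.6) and Col5a2 (12.4) were under the floor in D16. The part of fibroblast RNA in the Prrx1 difference was not tested. In bulk RNA, fewer cells with a transcript and less of it per cell cannot be told apart, for this gene and for those that follow.

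Hand2 encodes a bHLH factor needed for the right ventricle and for the posterior limb bud. Its single probe set, 163204_at, read 128.2 in D351 and 18.0 in D16, a 7.12-fold difference (log2 2.83). The D16 reading lay just above the floor, so Hand2 was clear in D351 and close to the limit of measurement in D16. With the floor at the 75th percentile D16 was under it, and the ratio became a bound of log2 at least 1.26.

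Tbx5 encodes a T-box factor of the forelimb field and of the atria and left ventricle. It read 49.0 in D351 and 7.0 in D16 on its single probe set, 116753_at. D16 was under the floor, so D351 was at least 2.92-fold higher (log2 of at least 1.54). It was under a floor at the 75th percentile in both clones and then had no ratio. Hand2 and Tbx5, with their roles in both heart and limb, were therefore on the same side, higher in D351, each on 1 probe set.

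Gata4 encodes a zinc finger factor of heart, gut and gonad development that in the heart works with Tbx5 and Hand2. It lay on the other side. Its single probe set, 104848_at, read 0.5 in D351 and 54.3 in D16, so D351 was at least 3.23-fold lower (log2 of at most -1.69). The D16 reading was close to the 75th percentile of 53.5, and with the floor placed there the bound was log2 of at most -0.0214, while with the floor at the 25th percentile (4.6) it was at most -3.56. The clones thus differed in which of the 3 cardiac factors reached the reported floor, each on a single probe set. In D351 Hand2 and Tbx5 reached it and Gata4 was under it. In D16 Gata4 reached it, Hand2 lay just above it and Tbx5 was under it. A reading under the floor does not show absence, and the combination depended on the floor. At the 25th percentile Tbx5 (7.0) reached the floor in D16 too, so all 3 factors did there. At the 75th percentile Hand2 alone reached it in D351 and Gata4 alone in D16.

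The heart muscle genes on the array did not reach the floor in either clone. Of 30 genes listed as cardiac genes downstream of Gata4, Tbx5 and Hand2, 5 were on the array (Myl7, Pln, Atp2a2, Ttn and Csrp3), and 5 of 5 were under the floor on both arrays. Of all 7542 genes with 1 symbol, 4922 reached the floor on at least 1 array, and the rest were under it on both. The brightest probe sets of the 5 cardiac genes summed to 30.5 in D351 and 50.3 in D16. Myl7, the atrial myosin light chain, read 2.2 in D351 and 12.9 in D16, and Pln, the phospholamban of the calcium pump, read 2.0 in D351 and 11.1 in D16. Signals under the floor of 16.8 are given no ratio. With the floor at the 25th percentile (4.6), both Myl7 and Pln were measured in D16 and were at least 2-fold lower in D351. Ttn (14.3 in D351, 16.4 in D16) and Csrp3 (8.1 in D351, 9.1 in D16) were then measured too and did not pass 2-fold. Atp2a2 (3.9 in D351, 0.8 in D16) was still under the floor. Of these genes only Pln and Ttn were read on a plain _at probe set. Myl7 was read on an _f, Atp2a2 on an _r and Csrp3 on an _i probe set, which limits what their low signals show. The other Pln probe set, an _r one, read 0.6 in D351 and 0.7 in D16.

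Sox9 encodes the HMG-box factor that directs cartilage formation and also acts in other mesenchyme. Probe set 163458_at read 58.1 in D351 and 125.3 in D16, 2.16-fold lower in D351 (log2 -1.11). Probe set 163058_at read 40.5 in D351 and 56.7 in D16, a log2 ratio of -0.49. Sox9 was above the floor in both clones on both probe sets and lower in D351 on both, but only one of them passed 2-fold, and the median of these ratios was -0.80. Of 23 cartilage genes listed that Sox9 is known to drive, 5 were on the array. Of these, 3 were under the floor in both clones and 0 passed 2-fold. Over the array, 4922 of 7542 genes with 1 symbol were measured. Col9a1, a cartilage collagen chain, read 0.5 in D351 and 3.6 in D16. Col27a1, a fibrillar collagen of cartilage, read 34.6 in D351 and 22.7 in D16 (log2 0.61). Its other probe set was under the floor in both clones (12.6 in D351 and 4.9 in D16). Ucma, the other gene measured, went the other way on an _i probe set. It read 10.3 in D351 and 19.0 in D16 (log2 of at most -0.18), a bound that does not settle 2-fold.

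Tcf4 encodes an E protein, the kind of bHLH partner with which Hand2 and other tissue-specific bHLH factors dimerise. It is not the Wnt effector of the same nickname, whose gene is Tcf7l2. Probe set 112795_at read 205.6 in D351 and 544.8 in D16, 2.65-fold lower in D351 (log2 -1.41). Probe set 111083_at read 19.7 in D351 and 29.7 in D16 (log2 -0.59), with the D351 reading close to the floor. Both were lower in D351, and the median of these ratios, -0.999, fell just short of 2-fold (1.999-fold). Hand2 and Tcf4 were thus on opposite sides, the tissue-specific bHLH gene higher and the E protein gene lower in D351, with both still above the floor in both clones.

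Runx1 encodes the runt-domain factor needed for blood stem cells to form from the endothelium of the dorsal aorta, the tissue from which both clones were grown. Its probe set 114025_at read 61.1 in D351 and 45.4 in D16, a 1.35-fold difference (log2 0.43). It was above the floor in both clones and was the one factor of the 7 under 2-fold. The blood and macrophage markers listed (17) had 0 members among the probe sets with 1 symbol, so the array does not show whether blood cells were present. RefSeq gives Runx1 separate start sites far apart on chromosome 16, and its single probe set was not assigned to a transcript from either.

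**Figure D2:**
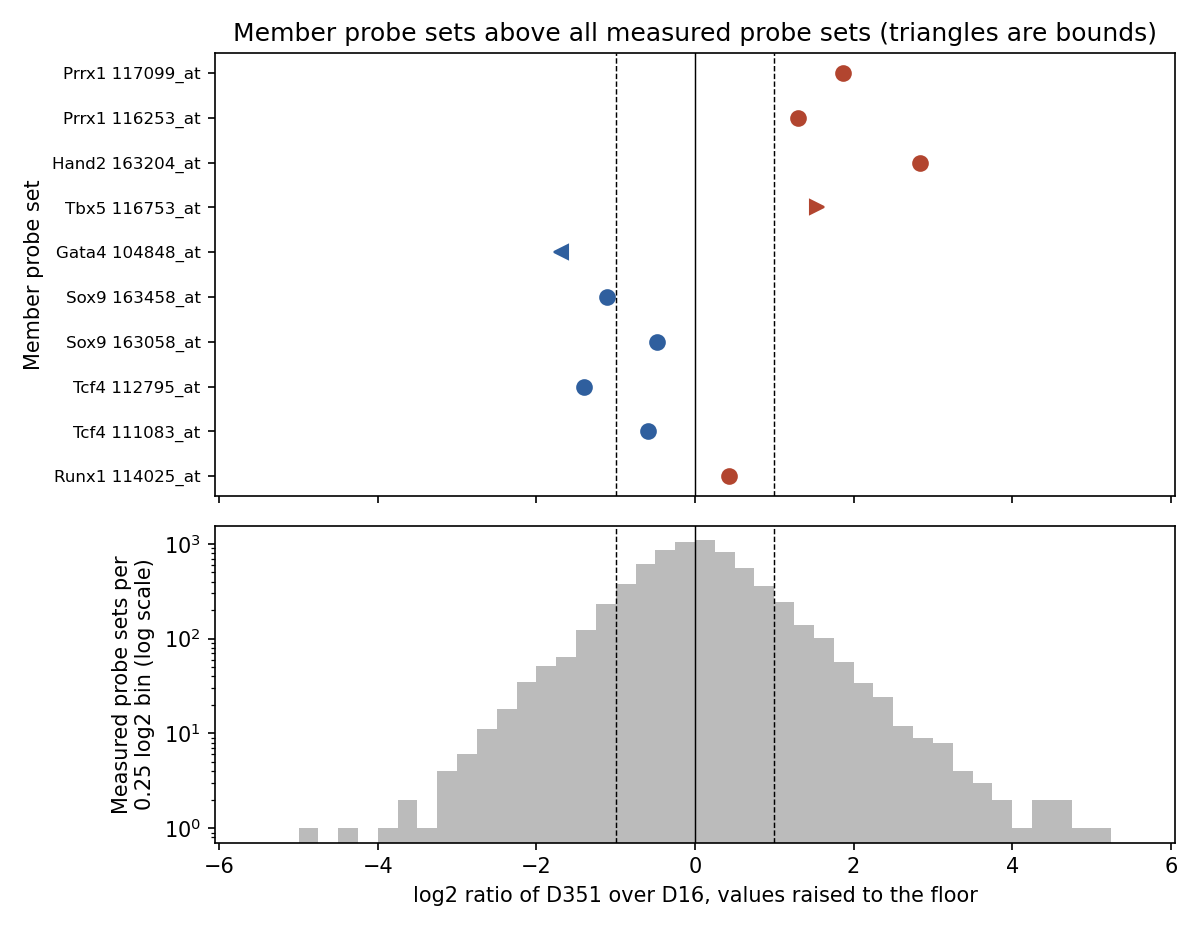
The upper panel gives the log2 ratio of D351 over D16 for each member probe set, with circles for ratios and triangles for bounds (Tbx5 and Gata4). The lower panel counts all 6920 measured probe sets by the same ratio on a log axis, and dashed lines mark 2-fold. Of the 10 members' probe sets, 4 lie right of the 2-fold line and 3 left of it.

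The size of disagreement between probe sets of a gene gives a scale for these ratios. Where a gene had 2 or more measured probe sets (1113 genes), the log2 ratios of the brightest pair differed by a median of 0.41 and in 1 of 10 genes by more than 1.13. The pairs differed by 0.57 for Prrx1, 0.62 for Sox9 and 0.81 for Tcf4. This covers differences between probe sets on the same 2 arrays and not those between cultures, since the same RNA lies behind each ratio of a pair. Hand2, Tbx5, Gata4 and Runx1 had 1 probe set each and lack even this check.

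Other transcription factors of the same lineages were placed beside the 7. The 9 lists held heart, limb, bHLH, Sox, skeletal and smooth muscle factors, Runx and Gata relatives and partners, and cartilage and heart target genes. Over these lists, 53 genes other than the 7 were on the array and 32 were measured. Of these 32, 3 passed 2-fold towards higher signal in D351 (background 9.49%) and 2 towards lower signal (background 8.57%), and the median log2 ratio was 0.36, against -0.01 for all measured genes. The list median depended on the floor, at 0.13 with the 25th percentile and 0.0855 with the 75th. The 3 higher were Sox11, Arid5b and Mrtfb, and the 2 lower were Osr1 and Osr2. Of 32 heart and limb factors, 5 others than the members were on the array and 0 of the 4 measured passed 2-fold. Mef2c read 8.1 in D351, under the floor, and 22.1 in D16 on its brightest probe set (log2 of at most -0.40). Another of its probe sets had at most -0.15. These bounds do not settle whether Mef2c was under 2-fold. Mef2a and Mef2d, MADS-box factors of muscle, had log2 ratios of 0.51 and 0.51, and Tead1, a partner of Yap1, had -0.09 on its brightest probe set. Tead1 had 0.53 and at least 1.61 on its other probe sets, so its probe sets disagreed.

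Osr1 and its paralogue Osr2 are odd-skipped zinc finger factors of intermediate and lateral mesoderm and of limb mesenchyme. Osr1 read 61.5 in D351 and 281.9 in D16 (4.58-fold lower in D351, log2 -2.20). Osr2 read 4.3 in D351 and 45.5 in D16, at least 2.71-fold lower in D351. Gata4 had this direction too, while Hand2, Prrx1 and Tbx5 had the other.

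Sox11, a SoxC factor of embryonic mesenchyme and neurons, read 186.0 in D351 and 35.4 in D16 (5.25-fold higher, log2 2.39) on one probe set. Its other probe set was under the floor in both clones (7.6 in D351 and 5.1 in D16), so the Sox11 ratio rests on 1 probe set. Arid5b, a DNA-binding partner of Sox9 in mouse cartilage, read 1104.1 in D351 and 317.5 in D16 (3.48-fold higher). It was higher in D351 where Sox9 was lower. Sox4 (log2 0.14, on an _i probe set) and Sox12 (-0.53), both also SoxC factors, did not reach 2-fold, and Sox6, a co-factor of Sox9, was under the floor in both clones.

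Among smooth muscle and lateral mesoderm factors, 11 of 15 on the array were measured, with a median log2 ratio of -0.14. Mrtfb, a co-activator of serum response factor, read 54.6 in D351 and 19.2 in D16 (2.84-fold higher). Srf itself had log2 ratios of -0.37 and 0.11 on its measured probe sets. Foxf1, a forkhead factor of lateral plate mesoderm, read 79.6 in D351 and 87.9 in D16, and Nr2f2, a nuclear receptor of venous and atrial cells, read 50.8 in D351 and 77.0 in D16.

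Listed relatives and partners of Runx1 and Gata4 could hardly be measured. Of 9 on the array other than Runx1, 6 were under the floor in both clones, among them Runx3, Gata3, Ets1 and Fli1. Among all 7542 genes with 1 symbol, 4922 were measured. The 3 measured (Tle2, Hipk2 and Crebbp) had log2 ratios of 0.32 to 0.74 on their brightest probe sets, and 0 passed 2-fold. Crebbp (0.32) had -0.08, 0.44 and at least 0.23 on its other probe sets, so these disagreed in direction. For limb and mesenchyme homeobox factors other than Prrx1, 3 of 5 were measured (Zeb2 0.65, Zfhx3 0.45 and Tshz1 -0.51) and 0 passed 2-fold. Bhlhe41 (-0.46), a clock-linked repressor, was the one gene of the bHLH list measured besides Hand2 and Tcf4. Skeletal muscle and paraxial mesoderm factors (20 listed) had 0 members on the array with 1 symbol. Of 17 factors to be named at any value, such as the E proteins Tcf3 and Tcf12, the Id inhibitors and Runx2, 1 (Sox6) was on the array.

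**Figure D3:**
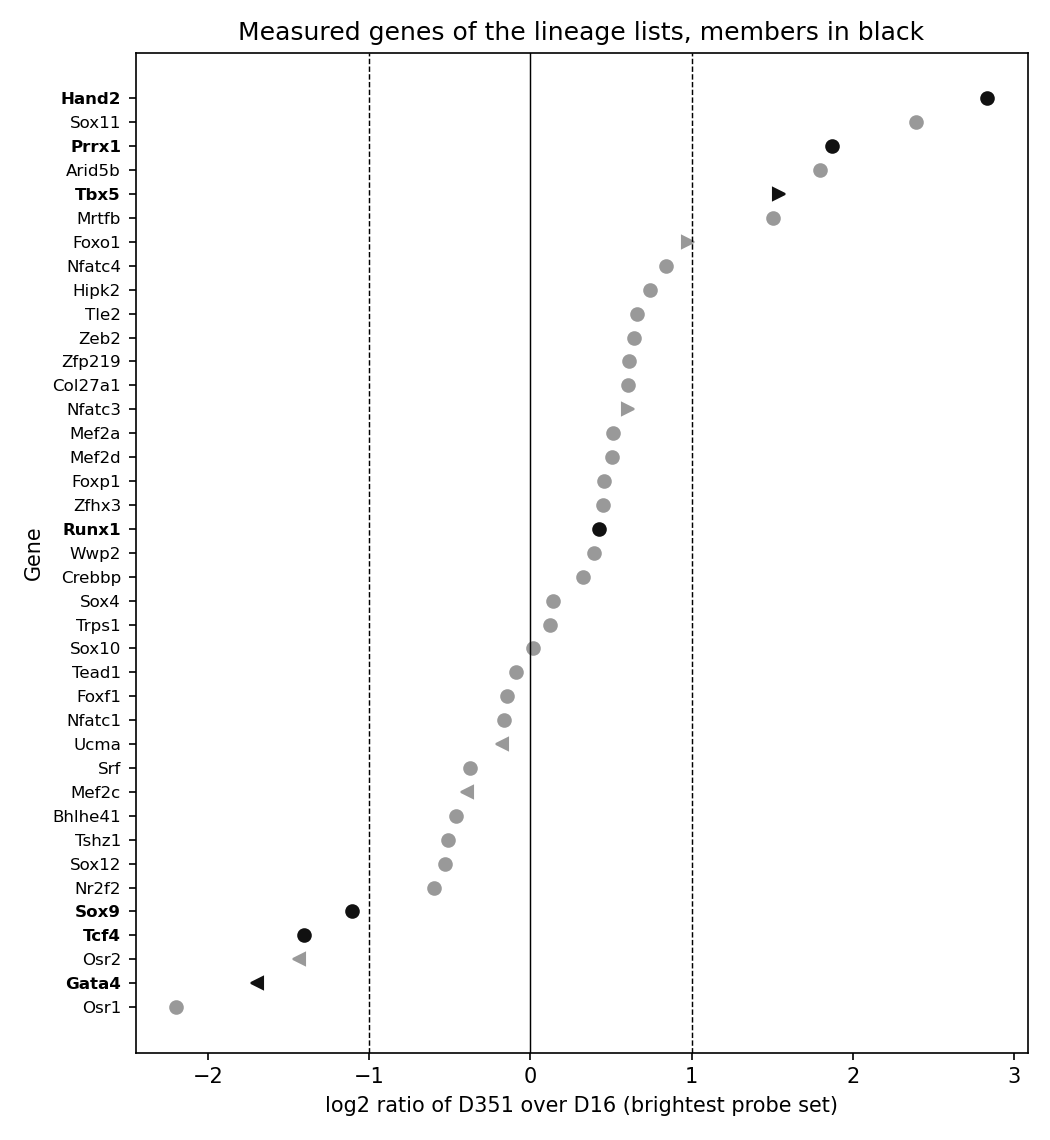
The log2 ratio of D351 over D16 is plotted for each measured gene of the 9 lists, on its brightest probe set, with the 7 members in black, the others in grey and bounds as triangles. Hand2 (2.83) lies at the D351 end and Osr1 (-2.20) at the D16 end, while the triangle of Gata4 (at most -1.69) has no fixed rank.

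The 7 genes lie on 7 different chromosomes (1 for Prrx1, 8 for Hand2, 5 for Tbx5, 14 for Gata4, 11 for Sox9, 18 for Tcf4 and 16 for Runx1), so no pair of them is neighbouring. The median log2 ratio of the other measured genes on the same chromosome lay between -0.13 and 0.11 for 6 of the members. For Tcf4 it was -0.30 over 137 genes on chromosome 18, of which 25.5% were above 0. The 10 nearest measured genes to Tcf4 in gene order had a median of -0.58, and 3 of them were at least 2-fold lower in D351. The part of this stretch in the Tcf4 difference was not tested. The Tcf4 ratio was -1.11 with the chromosome median taken off and -0.82, under 2-fold, with the median of the 10 nearest genes taken off. Around Sox9 the 10 nearest genes had a median of -0.18, with 1 higher and 2 lower in D351 past 2-fold, and Sox9 was at -0.93, under 2-fold, with that median taken off. Around Hand2 the median was -0.21 and the ratios ran from -1.88 to 3.41, a range that takes in Hand2 itself, with 2 higher and 2 lower in D351 past 2-fold. The 10 nearest genes to Prrx1 had a median of 0.53, and 2-fold was passed by 3 of them towards higher and 0 towards lower signal in D351. Those of Tbx5, Gata4 and Runx1 had medians of -0.09, -0.12 and -0.11, with 0 of 10 past 2-fold around each gene.

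**Figure D4:**
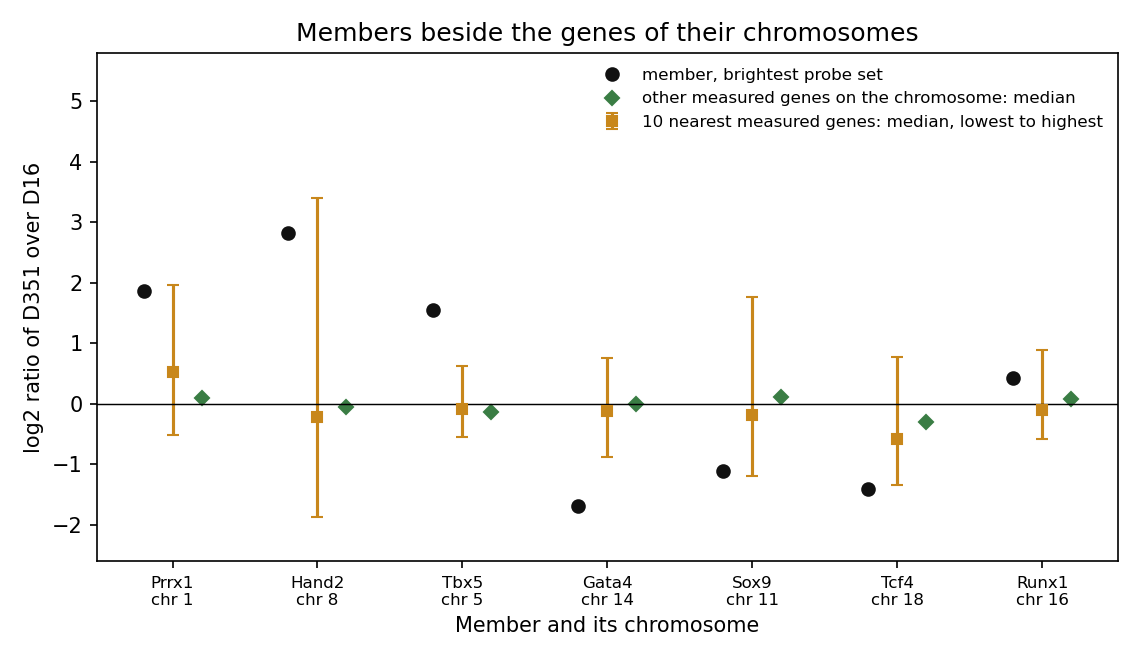
For each member the log2 ratio of D351 over D16 on its brightest probe set (circle) is set beside the median and the lowest to highest value of the 10 nearest measured genes (square with bar) and the median of the other measured genes on its chromosome (diamond). Among the chromosomes shown, that of Tcf4 has the lowest median (-0.30), and Tbx5, Gata4 and Tcf4 lie outside the range of their neighbours.

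Markers of the labelled cells and of other cell types were sparse on this array. Of 18 mesoangioblast and mural cell markers, 5 were on it. Cd44, a surface receptor of mesenchymal progenitors, read 1092.5 in D351 and 1164.5 in D16, and Cspg4, the NG2 proteoglycan, read 26.1 in D351 and 83.3 in D16 (3.19-fold lower in D351). Eng and Rgs5 were under the floor in both clones. Of 5 endothelial markers on the array, Eng, Esam and Robo4 were under the floor in both clones. Flt1 read 44.5 in D351 and 10.3 in D16, where it was under the floor. Mmrn2 was above the floor in both clones, at 19.2 in D351 and 21.4 in D16 (log2 -0.16). All 4 cardiomyocyte markers on the array and the 1 chondrocyte marker (Col9a1) were under the floor in both clones. For scale, 4922 of all 7542 genes with 1 symbol were measured.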

How the data were processed

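Total RNA of clones D351 and D16 was measured on 1 Affymetrix MG-U74B array each. The authors deposited 1 linear intensity per probe set and array, and the software and background correction are not given in the sources used here. After trimming 2% at each end the column means were 40.0 in D351 and 40.0 in D16, within the 5% set for using values as deposited. Of 12477 probe sets, 66 controls were left out. Summed signals of the rest were 612879 in D351 and 606073 in D16. Gene names came from GEO's platform annotation, updated through gene identifiers to RefSeq of assembly GRCm38.p6 (0 symbols renamed); 10581 probe sets had 1 symbol, 178 several and 1652 none.

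Values were raised to the floor (16.8) before log2 ratios of D351 over D16 were taken. The brightest probe set, by mean signal, stood for a gene, and the size rule asked for 2-fold with at least 1 array at the floor. The code was tested on simulated data. With 1 array per clone no test was made, and the number of arrays limits the precision. The members and lists were chosen with earlier results of these data known. Named list genes passed 2-fold (at most 8 per list) or were to be named at any value; other list genes are named to illustrate a list. Alternatives changed the scaling, floor, size rule and summary. Python 3.11.15, numpy 2.4.6, pandas 2.3.3 and statsmodels 0.14.6 were used.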

Additional observations from a re-analysis of the deposited data

How the results depend on the processing

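Scaling to a common median, quantile normalization and a loess correction (span 0.3) moved no member across 2-fold and shifted the median of all probe sets by at most 0.02 in size. At a 75th percentile floor Gata4 was at log2 of at most -0.0214, Tbx5 had no ratio, and 2 member probe sets were at least 2-fold higher in D351 against 4 as reported. Under a 3-fold rule 2 were higher and 1 lower in D351, against 4 and 3. With the median over probe sets, Sox9 was at -0.80 and Tcf4 at -0.999, both under 2-fold. Taking off chromosome medians, added after seeing the data, left the 6 members past 2-fold there, and taking off the median of the 10 nearest genes, also added then, left Sox9 at -0.93 and Tcf4 at -0.82. Among list genes, 5 of 46 measured were higher and 6 lower in D351 at a 25th percentile floor. There 14 genes were newly measured (Ldb2, Ets1, Myl7 and Pln among those counted). Mef2c (lower in D351) and Foxo1 (higher), measured before as bounds, also passed 2-fold there. At a 75th percentile floor 2 of 20 were higher and 1 lower, against 3 and 2 of 32 as reported. The share of all genes past 2-fold was not taken at either of these other floors, so nothing is read from these list counts. Over all probe sets the counts higher and lower in D351 were 639 and 553 of 6920 measured as reported. Of the same 6920 they were 1342 and 1314 at 1.5-fold and 224 and 171 at 3-fold. They were 1223 and 1127 with the lower floor and 260 and 223 with the higher one, where the number measured differs. No result changed direction past 2-fold. No paired analysis was possible because each clone has 1 array. Signals near the floor limit Hand2 in D16, Tbx5 and Gata4.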
